A study of Mus musculus with 7 samples.

Results

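The genes described here are 40 regulators and components of the mouse cell cycle and of DNA replication, among 27810 genes measured by RNA-seq in 7 livers. They were taken by gene symbol, whatever their level, and they fall into 5 roles. These are 9 G1 cyclins, their kinases and Myc, 10 genes of S phase and DNA synthesis, 12 genes of G2 and mitosis, 5 inhibitors of cyclin-dependent kinases (CDKs) and 4 genes of the p53 stress response. All livers came from male wild-type C57BL/6j mice put at 5 weeks of age on a WD diet (40% fat, 20% fructose and 2% cholesterol), a feeding model that the labels call WD-induced NASH, a fatty and inflamed liver. The mice were injected 1 time through the tail vein when they had been fed for 32 weeks, and livers were taken after 40 weeks. The MSC group (replicates 0, 1 and 2) received hUC-MSCs, human umbilical cord mesenchymal stromal cells, and the vehicle group (replicates 1, 3 and 4) received PBS. The seventh library, replicate 6, is a vehicle sample whose label adds the word Cancer without saying what it refers to, and it is called the Cancer-labelled library and kept apart. No animals on another diet were analysed here, so all 7 livers share the diet and its length, and the sources do not say whether each library came from a separate animal. The p-values measure only the spread between these libraries.

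A cell enters the cycle when D-type cyclins with CDK4 and CDK6, and then cyclin E with CDK2, phosphorylate the retinoblastoma protein and release E2F factors, which switch on the genes of DNA synthesis. Genes of mitosis are switched on later, through CCAAT boxes bound by NF-Y and an element called CHR, and the DREAM and RB complexes keep both sets silent in resting cells. Most hepatocytes of an adult liver rest outside the cycle and can re-enter it after injury, and p53 and the CDK inhibitors restrain that entry.

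These elements can be read in the promoters of the genes. The RefSeq promoter windows (GRCm38.p6, 250 bases before to 50 after the annotated start) held 33 of the 40 genes, and each was searched on both strands for the CHR (TTTGAA), the CCAAT box (CCAAT) and the E2F motif (GGCGGGAA or GGCGCGAA). No motif contains another. The 4 mitotic promoters below show CHR and CCAAT letters close to the start, and the 2 replication promoters show E2F letters. Each is written 5′ to 3′ on the gene's own strand, with matches in either orientation in capitals. All run from 120 bases before the start to the base before it, except Ccnb2, which runs 10 bases further.
Ccnb2, cyclin B2, chr9:70421545-70421674, minus strand: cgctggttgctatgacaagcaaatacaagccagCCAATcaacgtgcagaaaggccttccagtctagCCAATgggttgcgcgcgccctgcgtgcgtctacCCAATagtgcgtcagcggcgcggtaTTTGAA
Cdc20, activator of the anaphase-promoting complex, chr4:118437344-118437463, minus strand: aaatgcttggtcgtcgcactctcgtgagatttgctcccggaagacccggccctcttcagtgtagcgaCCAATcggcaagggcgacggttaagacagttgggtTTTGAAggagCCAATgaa
Cdk1, the mitotic kinase, chr10:69352913-69353032, minus strand: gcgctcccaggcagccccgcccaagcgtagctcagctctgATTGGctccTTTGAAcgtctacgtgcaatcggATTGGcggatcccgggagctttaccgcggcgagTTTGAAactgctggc
Top2a, DNA topoisomerase II alpha, chr11:99024190-99024309, minus strand: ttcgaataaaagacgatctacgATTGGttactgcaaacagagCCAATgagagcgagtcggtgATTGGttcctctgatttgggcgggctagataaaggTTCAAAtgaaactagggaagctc
Mcm6, a subunit of the replicative helicase, chr1:128359706-128359825, minus strand: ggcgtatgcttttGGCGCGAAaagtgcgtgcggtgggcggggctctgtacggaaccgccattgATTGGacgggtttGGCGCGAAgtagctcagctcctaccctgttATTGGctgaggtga
Rrm1, the large subunit of ribonucleotide reductase, chr7:102441575-102441694, plus strand: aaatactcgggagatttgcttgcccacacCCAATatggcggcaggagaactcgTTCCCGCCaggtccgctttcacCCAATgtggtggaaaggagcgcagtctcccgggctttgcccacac

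In Ccnb2 the 3 CCAAT boxes began 87, 54 and 21 bases before the start, 33 bases apart each time, and a CHR followed 5 bases after it. In Cdk1 a CHR began 15 bases before the start, downstream of a CCAAT box in reverse orientation at 48. The CHR was in 7 of the 10 mitotic promoters with a window, against 20.2% of all 27025 genes with one. CHR and CCAAT stood together in the same 7 promoters (Aurka, Ccnb2, Cdc20, Cdk1, Mki67, Plk1 and Top2a), against 7.97% of all genes. The CCAAT box, with or without a CHR, was in 9 of 10 mitotic and 8 of 9 S-phase promoters, against 41.1% of all genes. The E2F letters were in 5 of the 9 S-phase promoters (Mcm3, Mcm5, Mcm6, Mcm7 and Rrm1) and in none of the 10 mitotic ones, against 3.10% of all genes. Among 60 other mitosis genes, 50 had a window and 27 of these held CHR and CCAAT together, and among 48 other replication genes, 38 had a window and 10 held the E2F letters. These are matches of letters and not bound sites.

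Levels are given in FPKM, fragments per kilobase of transcript scaled to each library's mapped total, which can be compared between genes because they are per length. The commonest low value of the 13916 genes with 1 transcript, taken as 1 fragment, gives an estimated depth of 16400000 to 18100000 fragments per library, so that 1 FPKM stands for about 16.4 to 18.1 fragments per kilobase. The RNA was liver in every library: Alb, the albumin gene, lay between 12350 and 28892 FPKM. Single libraries also stood apart in features other than the cell cycle. Mitochondrially encoded genes took 36.4% of the summed FPKM in MSC replicate 1, against 16.5% to 23.3% in the other 6. In the Cancer-labelled library 8 of 8 bile duct markers were above all 6 other libraries, their summed level being 553 FPKM against 31.9 to 149 in the MSC and 49.4 to 169 in the vehicle libraries, and Krt19, a keratin of bile duct cells, was at 24.4 FPKM against 0.217 to 1.11 elsewhere. Their part in the results below was not tested, and in bulk tissue fewer cells of a type and less RNA per cell cannot be told apart.

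The 40 genes ranged from near silence to abundant. The most abundant in the vehicle group were Gadd45g, Cdkn1a, Pcna, Cdk4 and Ccnd1, with mean levels of 26.6, 19.6, 11.1, 9.37 and 9.23 FPKM. In all 7 libraries 14 genes were at 1 FPKM or more and 14 were below 1 FPKM. The low genes were mostly mitotic: 9 of the 12 G2 and mitosis genes stayed below 1 FPKM in every library. Summed over the 12, the mitotic level was 2.38 to 6.91 FPKM in the vehicle group, and the 10 S-phase genes summed to 15.02 to 32.7 FPKM.

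**Figure D1:**
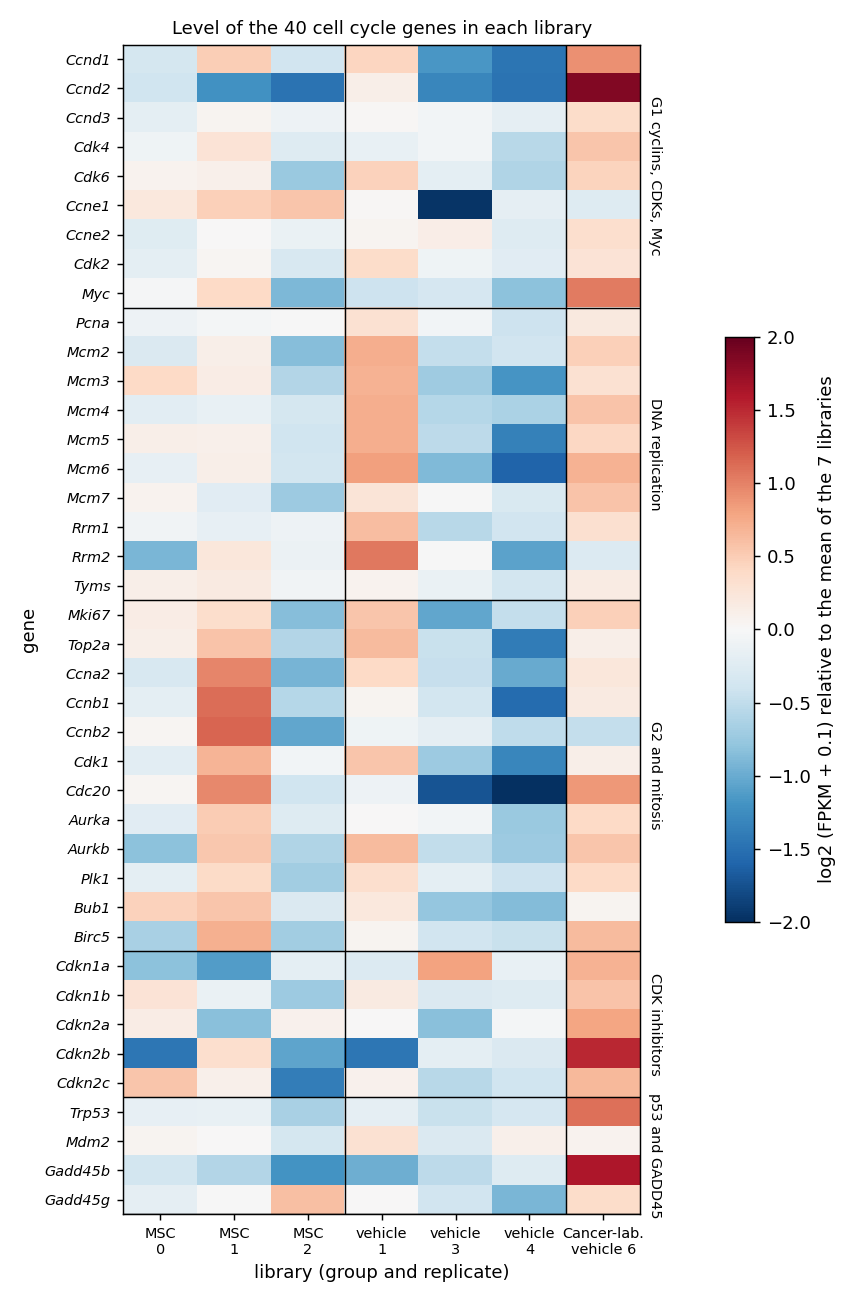
Heat map of the 40 genes (rows, in 5 roles) in the 7 libraries (columns). Colour gives the log2 of FPKM + 0.1 relative to the gene's mean over the libraries, limited to 2 in either direction. Many rows are high in vehicle replicate 1 or MSC replicate 1, in opposite treatment groups, and many in the Cancer-labelled library.

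MSC and vehicle livers were compared first, which asks whether cell cycle genes differed after the cell injection. No cell cycle gene passed the test. Differences are MSC minus vehicle on the log2(FPKM + 1) scale, which understates the change of low genes, tested by limma over the 10534 genes that reached 1 FPKM in 3 or more of the 6 libraries. A gene passed when its p, adjusted by Benjamini-Hochberg over all of them, was under 0.05. Of the 40 genes 19 entered that test and 0 passed, where 0.019% of all genes tested passed, 0.00949% in each direction. At an unadjusted p under 0.05 there was 1 cell cycle gene, Cdkn1a, where 5.59% of all genes tested were past that threshold. The median difference was -0.01 over the 19 genes and -0.05 over all genes tested. The MSC and vehicle libraries overlapped for 39 of the 40 genes.

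The G1 genes drive the decision to divide. Ccnd1, cyclin D1, which rises when hepatocytes leave rest, was at 10.03, 18.2 and 9.84 FPKM in MSC replicates 0, 1 and 2 and at 17.4, 5.68 and 4.63 FPKM in vehicle replicates 1, 3 and 4. A single library of each group was high and the ranges overlapped. The difference was 0.58 ± 0.43 (SE, limma), with a 95% interval from -0.41 to 1.57 and an adjusted p of 0.995. Cdk4, the kinase partner of D cyclins, was at 10.4, 13.4 and 9.24 FPKM in the MSC and at 9.94, 10.7 and 7.52 FPKM in the vehicle libraries. The ranges overlapped again, with a difference of 0.21 ± 0.20 (SE). Myc, a transcription factor that promotes growth and division, was at 5.005, 6.75 and 2.68 FPKM in the MSC and at 3.81, 4.002 and 2.84 FPKM in the vehicle libraries. Its lowest and highest values were both in MSC libraries, and the difference was 0.30 ± 0.27 (SE). Cdk2, the partner of cyclin E, was at 1.87, 2.24 and 1.71 FPKM in the MSC and at 2.83, 2.03 and 1.84 FPKM in the vehicle libraries, with a difference of -0.13 ± 0.18 (SE) and overlapping ranges. Ccnd3 and Cdk6 lay between 2.605 and 3.13 FPKM and between 1.12 and 2.71 FPKM over the 6 libraries.

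The only gene of the 40 whose groups did not overlap was Ccne1, cyclin E1, which activates CDK2 at the entry to S phase. It was at 0.557, 0.687 and 0.735 FPKM in the MSC and at 0.476, 0.0468 and 0.402 FPKM in the vehicle libraries. All 7 values were under 1 FPKM, so it did not enter the test. All MSC libraries being above all vehicle libraries was seen in 2.21% of every listed gene and the opposite order in 5.21%, so 1 gene of 40 in the former direction and 0 in the latter stand near or below those shares. Among the genes tested those shares were 2.17% and 7.84%, and 0 of the 19 cell cycle genes tested stood in either order. Ccne2, cyclin E2, lay between 0.453 and 0.619 FPKM over both groups.

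The S-phase genes build the replication fork and its nucleotides. The MCM genes encode the helicase that opens DNA. Mcm6 was at 1.31, 1.61 and 1.11 FPKM in the MSC libraries and at 2.66, 0.751 and 0.417 FPKM in the vehicle libraries. Mcm3 was at 1.40, 1.17 and 0.657 FPKM in the MSC and at 1.75, 0.597 and 0.400 FPKM in the vehicle libraries. For both genes vehicle replicate 1 was the highest and vehicle replicate 4 the lowest of the 6 libraries, so the MSC libraries lay inside the vehicle range. The differences were 0.16 ± 0.33 for Mcm6 and 0.16 ± 0.28 for Mcm3 (SE, limma). Mcm4 was at 1.195, 1.26 and 1.08 FPKM in the MSC and at 2.38, 0.914 and 0.873 FPKM in the vehicle libraries, with the MSC libraries again inside the vehicle range. Mcm7 was at 2.51, 2.03 and 1.40 FPKM in the MSC and at 2.87, 2.37 and 1.91 FPKM in the vehicle libraries, with a difference of -0.19 ± 0.20 (SE). Rrm2, the small subunit of ribonucleotide reductase, which makes deoxyribonucleotides, was at 1.03, 2.39 and 1.86 FPKM in the MSC and at 4.31, 2.02 and 0.913 FPKM in the vehicle libraries. Its difference was -0.21 ± 0.36 (SE). Pcna, the sliding clamp of DNA polymerase, was steadier at 10.5, 11.04 and 11.2 FPKM in the MSC against 14.0, 10.8 and 8.46 FPKM in the vehicle libraries, with a difference of 0.01 ± 0.19 (SE). The remaining S-phase genes were low: over the 6 libraries Mcm2 lay between 0.327 and 1.18 FPKM, Mcm5 between 0.184 and 1.11 FPKM, Rrm1 between 0.619 and 1.52 FPKM and Tyms, the thymidylate synthase gene, between 0.655 and 1.00 FPKM. Vehicle replicate 1 held the highest value of the first 3 of these and MSC replicate 1 that of Tyms.

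None of the 12 mitotic genes reached the level needed for the test between MSC and vehicle, and their values are given as a description. Mki67, the gene of the proliferation antigen Ki-67, was at 0.544, 0.638 and 0.222 FPKM in the MSC and at 0.755, 0.182 and 0.316 FPKM in the vehicle libraries. Top2a, which untangles DNA before division, was at 0.634, 0.898 and 0.34998 FPKM in the MSC and at 0.949, 0.394 and 0.155 FPKM in the vehicle libraries. Both genes were high in MSC replicate 1 and vehicle replicate 1, and the groups overlapped. Ccnb1, cyclin B1, the partner of CDK1, was at 0.182, 0.598 and 0.118 FPKM in the MSC and at 0.236, 0.150 and 0.0109 FPKM in the vehicle libraries. Ccnb2 was at 0.686, 1.60 and 0.272 FPKM in the MSC and at 0.620, 0.577 and 0.437 FPKM in the vehicle libraries. The transcripts of these 2 cyclin B genes were thus highest in MSC replicate 1 among the 6 MSC and vehicle libraries. Cdk1 itself was at 0.360, 0.752 and 0.415 FPKM in the MSC and at 0.685, 0.224 and 0.116 FPKM in the vehicle libraries, again with overlap. The others ranged over the 6 libraries from 0.248 to 1.28 FPKM for Ccna2 (cyclin A2), 0.0846 to 1.53 FPKM for Cdc20, 0.295 to 0.837 FPKM for the mitotic kinase gene Aurka and 0.078 to 0.387 FPKM for Aurkb. The ranges were 0.197 to 0.529 FPKM for Plk1, also a mitotic kinase, 0.0384 to 0.271 FPKM for the spindle checkpoint gene Bub1 and 0.260 to 0.852 FPKM for Birc5, which encodes survivin. For all of these MSC replicate 1 was the highest of the 6, except Aurkb, which was highest in vehicle replicate 1.

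Among the 40 genes the library with the highest level differed between roles. Among the 12 mitotic genes MSC replicate 1 was the highest of the 6 MSC and vehicle libraries for 9 and vehicle replicate 1 for the other 3. Among the 10 S-phase genes vehicle replicate 1 was the highest of the 6 for 9. Over the 12265 genes tested with the Cancer-labelled library, MSC replicate 1 was the highest of the 6 for 16.1% and vehicle replicate 1 for 31.1%. Of the 12 mitotic genes 11 were too low to be among those 12265, as were 18 of the 40 in all. These shares are therefore of genes at higher levels. Vehicle replicate 4 was the lowest of the 6 for 18 of the 40 genes, where it was the lowest for 17.9% of all genes tested. MSC replicate 2 was the lowest for 14, a share near the 31.7% of all genes tested. The summed mitotic level was 5.01, 10.1 and 3.30 FPKM in the MSC and 6.91, 3.46 and 2.38 FPKM in the vehicle libraries. The summed S-phase level was 21.1, 22.8 and 19.8 FPKM in the MSC and 32.7, 19.7 and 15.02 FPKM in the vehicle libraries. The other genes of these processes did not show this split by role: of 60 other mitosis genes vehicle replicate 1 was highest for 31 and MSC replicate 1 for 27, and of 48 other replication genes MSC replicate 1 was highest for 20 and vehicle replicate 1 for 16. These same 2 libraries held most of the highest values in each list, with the leading library exchanged. MSC replicate 1, the library with 36.4% mitochondrial FPKM, also had the lowest summed macrophage markers, 59.4 FPKM against 95.7 to 229 in the vehicle group. The part of these features in the pattern was not tested.

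**Figure D2:**
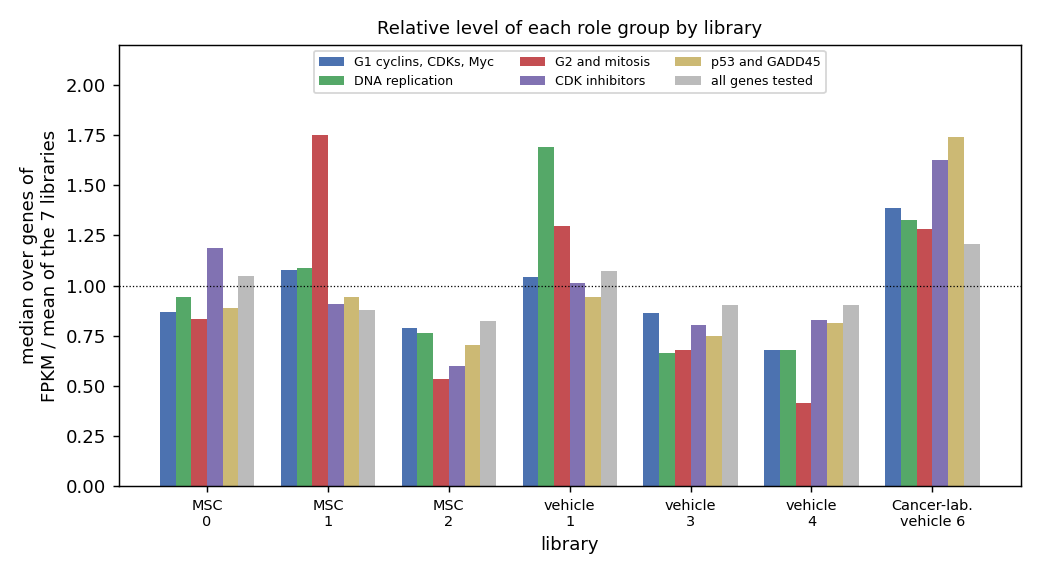
Median level of the genes of each role in each library, relative to each gene's mean over the 7 libraries (vertical axis, a ratio), for the MSC, vehicle and Cancer-labelled libraries. The mitotic ratio is highest in MSC replicate 1 (1.75) and the S-phase ratio in vehicle replicate 1 (1.69), while the G1, CDK inhibitor and p53 ratios are highest in the Cancer-labelled library (1.39, 1.63 and 1.74). The ratio of all genes tested, drawn beside the roles, is also highest in the Cancer-labelled library (1.21).

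The CDK inhibitors and the p53 genes hold cells out of the cycle. Cdkn1a encodes p21, a p53 target that blocks CDK2 (chr17:29090976-29100727, GRCm38). It was at 9.60, 7.75 and 14.7 FPKM in the MSC and at 14.0, 29.6 and 15.3 FPKM in the vehicle libraries. The means were 10.7 ± 3.62 and 19.6 ± 8.65 FPKM (SD, n = 3 each), and the ranges overlapped only because MSC replicate 2 lay above vehicle replicate 1. The difference was -0.79 ± 0.32 (SE), with a 95% interval from -1.51 to -0.07, and it failed the correction with an adjusted p of 0.822 by limma. Leaving out 1 library at a time moved that difference between -1.02 (without MSC replicate 2) and -0.46 (without vehicle replicate 3). Vehicle replicate 3, the highest for Cdkn1a, was also the highest of the 7 for 8 of 8 red cell markers, whose part was not tested. Cdkn1b, which encodes p27, was at 5.72, 4.27 and 2.81 FPKM in the MSC and at 5.33, 3.85 and 3.91 FPKM in the vehicle libraries. Cdkn2c, an inhibitor of CDK4 and CDK6, was at 3.69, 2.68 and 0.892 FPKM in the MSC and at 2.65, 1.66 and 1.86 FPKM in the vehicle libraries. Neither separated the groups, with differences of -0.05 ± 0.23 and 0.08 ± 0.32 (SE).

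Trp53, which encodes p53, was at 3.11, 3.11 and 2.19 FPKM in the MSC and at 3.07, 2.53 and 2.75 FPKM in the vehicle libraries. Its difference was 0.00 ± 0.17 (SE), with a 95% interval from -0.38 to 0.38. Mdm2, which encodes the ubiquitin ligase that degrades p53, was at 5.78, 5.58 and 4.29 FPKM in the MSC and at 6.88, 4.49 and 5.93 FPKM in the vehicle libraries, with a difference of -0.11 ± 0.19 (SE). Gadd45b and Gadd45g belong to a family induced by stress and growth arrest. Gadd45b was at 3.82, 3.28 and 2.11 FPKM in the MSC and at 2.46, 3.41 and 4.14 FPKM in the vehicle libraries. Gadd45g was at 30.7, 34.4 and 52.9 FPKM in the MSC and at 34.9, 26.7 and 18.2 FPKM in the vehicle libraries. MSC replicate 2 was the highest of the 6 for Gadd45g and the lowest for Gadd45b. The Gadd45g difference of 0.55 ± 0.29 (SE) had a 95% interval from -0.10 to 1.21.

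**Figure D3:**
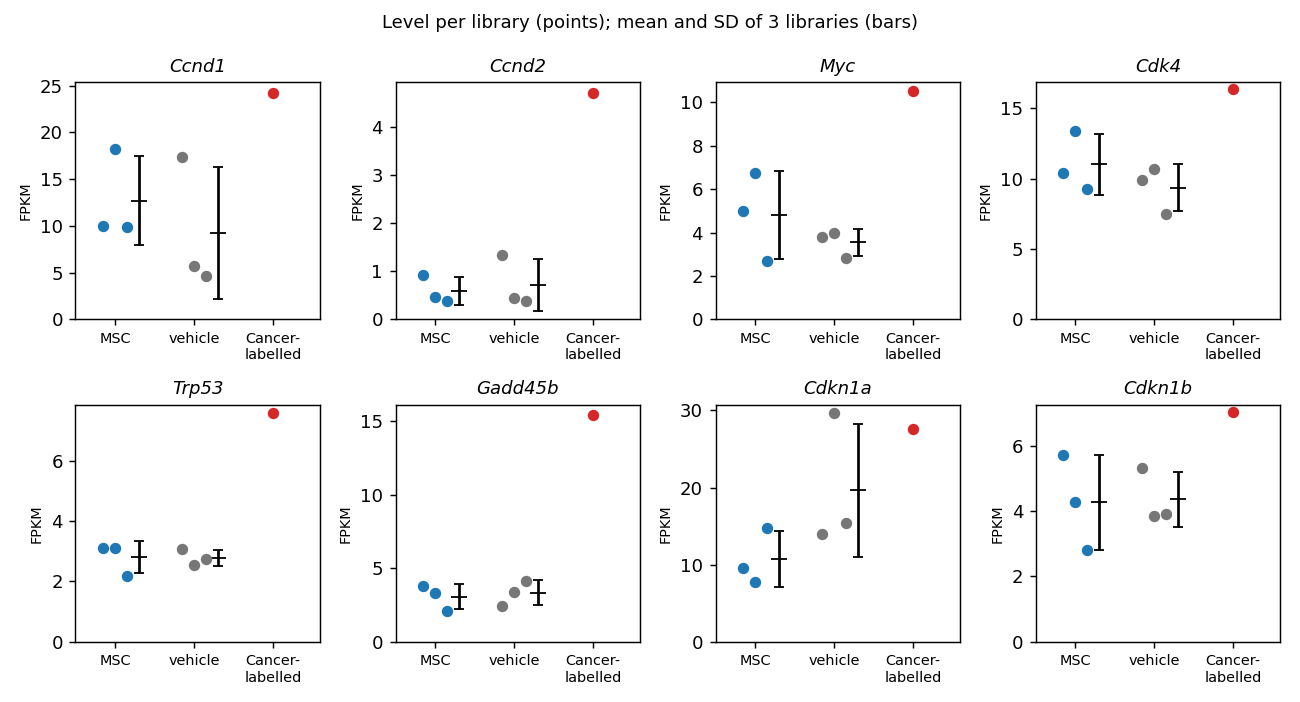
FPKM of 8 of the genes in each library (points), with the mean and SD of the 3 MSC and of the 3 vehicle libraries (bars). The MSC and vehicle points overlap in every panel, and the Cancer-labelled point is the highest in every panel but that of Cdkn1a, where vehicle replicate 3 is higher.

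The Cancer-labelled library was then set against the vehicle group, which asks how far 1 differently labelled liver stood from the others on the same treatment. In all, 3 genes passed the test, each of them higher: Ccnd2, Gadd45b and Trp53. The limma model held 3 groups and all 7 libraries, tested 12265 genes and took the spread of the lone library to be like that of the replicated groups. Of the 40 genes 22 were tested, 3 of them (Ccnd2, Cdc20 and Rrm1) only because of their level in the Cancer-labelled library, so that Ccnd2 is a call which the filter favoured. Over all genes tested 4.17% passed, 3.98% as higher and 0.188% as lower. At an unadjusted p under 0.05 there were 7 of the 22 cell cycle genes, against 17.2% of all genes tested. The whole library was shifted: the median difference was 0.25 over all genes tested, and 0.57 over the 22. Over all 40 genes, tested or not, it was 0.30. Of the 22, 21 had a positive difference, where 77.1% of all genes tested did. The 22 include the 3 genes that entered only through the Cancer-labelled library. The filter therefore favoured the 7, the 21 and the median of 0.57.

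Ccnd2, cyclin D2, another activator of CDK4 and CDK6 (chr6:127125162-127152193, GRCm38), was at 4.71 FPKM in the Cancer-labelled library. The vehicle libraries were at 1.35, 0.441 and 0.381 FPKM and the MSC libraries at 0.916, 0.475 and 0.379 FPKM. The Cancer-labelled value was 6.51 times the vehicle mean of 0.724 ± 0.543 FPKM (SD, n = 3) and stood apart from all 6 others. The difference was 1.77 ± 0.33 (SE), or 1.52 relative to the median of all genes, with an adjusted p of 0.0234 by limma. Without vehicle replicate 3 or vehicle replicate 4 the adjusted p was 0.0585 and 0.0645, with no filter on low values it was 0.0698, and with a pseudocount of 0.1 it was 0.188. Antisense genes overlap 3.91% (9330179D12Rik) and 3.95% (Gm43126) of its exon bases, and how strand was handled is unknown here.

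Gadd45b (chr10:80930073-80932204, GRCm38) was at 15.4 FPKM in the Cancer-labelled library against 2.11 to 4.14 FPKM in the other 6. That is 4.62 times the vehicle mean of 3.34 ± 0.842 FPKM (SD, n = 3). The difference was 1.94 ± 0.32 (SE), or 1.69 relative to the median of all genes, with an adjusted p of 0.0147 by limma. It passed without each MSC or vehicle library in turn, and missed the threshold only with a pseudocount of 0.1, at an adjusted p of 0.101. Gadd45g, of the same family, was at 44.8 FPKM, inside the range of the MSC libraries, with a difference of 0.78 ± 0.40 (SE) and an adjusted p of 0.371.

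Trp53 (chr11:69580359-69591873, GRCm38) was at 7.59 FPKM in the Cancer-labelled library against 2.19 to 3.11 FPKM in the other 6. That is 2.73 times the vehicle mean of 2.78 ± 0.268 FPKM (SD, n = 3). The difference was 1.19 ± 0.24 (SE), or 0.94 relative to the median of all genes, with an adjusted p of 0.0328 by limma. It did not pass without MSC replicate 1 (0.0513), without vehicle replicate 3 or vehicle replicate 4 (0.101 each), on TPM scaling (0.113) or with a pseudocount of 0.1 (0.128). Mdm2 and Cdkn1a, both of them p53 targets, did not pass the test. Mdm2 was at 5.78 FPKM against 4.49 to 6.88 FPKM in the vehicle libraries, a difference of 0.02 ± 0.28 (SE). Its sign depended on the scaling. The Mdm2 difference was 0.08 on TPM scaling and 0.14 with mitochondrially encoded genes removed. It was -0.29 when libraries were centred on their medians and -0.25 after quantile normalization. Cdkn1a was at 27.6 FPKM, between vehicle replicates 4 and 3, with a difference of 0.54 ± 0.45 (SE) and an adjusted p of 0.573.

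Ccnd1, Myc and Cdk4 were also above all 6 other libraries without passing the test. Ccnd1 was at 24.2 FPKM against 4.63 to 18.2 FPKM, a difference of 1.51 ± 0.61 (SE) with an adjusted p of 0.258 by limma. It passed only without vehicle replicate 1, which was itself high, and not under the other 16 alternatives. Myc was at 10.5 FPKM against 2.68 to 6.75 FPKM, a difference of 1.35 ± 0.39 (SE) with an adjusted p of 0.1096 by limma. It passed without MSC replicate 2 and with the vehicle and Cancer-labelled libraries only, and not under the other 15 alternatives. Cdk4 was at 16.4 FPKM against 7.52 to 13.4 FPKM, a difference of 0.76 ± 0.28 (SE) with an adjusted p of 0.212 by limma. Exons of genes on the other strand cover 23.4% of the Ccnd1 and 19.7% of the Cdk4 exon bases. Cdk6 and Ccnd3, at 2.68 and 3.89 FPKM, differed by 0.39 ± 0.34 and 0.35 ± 0.22 (SE).

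The S-phase and mitotic genes of the Cancer-labelled library stayed mostly inside the range of the other libraries. Mcm6 was at 2.43 FPKM, below vehicle replicate 1, with a difference of 0.72 ± 0.46 (SE) and an adjusted p of 0.467 by limma. It passed only without vehicle replicate 1, and not under the other 16 alternatives. Mcm4 was at 2.13 FPKM against 0.873 to 2.38 FPKM in the other 6, and Pcna was at 12.95 FPKM against 8.46 to 14.0 FPKM. Mcm7, at 3.60 FPKM, was above all 6 others, with a difference of 0.45 ± 0.28 (SE). Rrm2, at 1.67 FPKM, was lower than the vehicle mean, with a difference of -0.23 ± 0.51 (SE). Mki67 and Top2a were at 0.711 and 0.633 FPKM, under their levels in vehicle replicate 1. Cdc20 was the only mitotic gene tested, at 1.43 FPKM against 0.0846 to 0.679 FPKM in the vehicle libraries and 1.53 FPKM in MSC replicate 1, with a difference of 0.92 ± 0.33 (SE) and an adjusted p of 0.202. The Cancer-labelled library was above all 6 others for 14 of the 40 genes, a share near that of every listed gene, 36%. Among the 22 tested it was above all 6 others for 10 and above the 3 vehicle libraries for 12, shares near those of all genes tested, 46.5% and 56.2%. It was below all 6 others for 0, against 4.88% of all genes tested. By role it was the highest of the 7 for 6 of the 9 G1 genes, 1 of the 10 S-phase genes, 1 of the 12 mitotic genes, 4 of the 5 CDK inhibitors and 2 of the 4 p53 genes.

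Among the CDK inhibitors Cdkn1b and Cdkn2c were at 7.05 and 3.93 FPKM in the Cancer-labelled library, above all 6 others, with differences of 0.60 ± 0.33 and 0.70 ± 0.45 (SE) and adjusted p of 0.406 and 0.472 by limma. Cdkn2a and Cdkn2b, which encode p16 and p15 and mark senescent cells in many tissues, were at 0.347 and 0.669 FPKM. Cdkn2a lay between 0.0446 and 0.189 FPKM elsewhere, and Cdkn2b was listed at 0 in MSC replicate 0 and vehicle replicate 1 and reached 0.242 FPKM at most. Both were too low to test. Among the other cell markers, those of T and NK cells summed to 9.06 FPKM in the Cancer-labelled library. They summed to 1.59 to 7.25 FPKM in the MSC and 2.47 to 5.41 FPKM in the vehicle libraries. Of the 8 bile duct markers 7 passed the test as higher, where 3.98% of all genes tested did. Only 3 of these 8 were tested between MSC and vehicle. The others entered through their level in the Cancer-labelled library, so the filter favoured their calls. Markers of liver tumour and fetal liver summed to 174 FPKM against 7.83 to 72.4 FPKM in the other 6. Most of that sum was Ly6d and Cd24a, which reached 110 and 43.9 FPKM at most. Afp, Igf2, Dlk1 and Igf2bp3 stayed under 1 FPKM in every library. Of the 10 markers 5 were tested, against 4 between MSC and vehicle. All 5 were positive and 1, Cd24a, passed. Over all 10 markers 8 differences were positive and 2 negative. B and plasma cell markers summed to 12.2 FPKM against 2.25 to 5.34 FPKM in the other 6. Jchain made 10.2 of the 12.2 FPKM. Of the 8 markers 1 was above all 6 others and 3 had a negative difference. Of the 10 stellate and myofibroblast markers 7 were above all 6 others and 2 below, with 0 passing. Among all genes tested those shares were 46.5% and 4.88%. Neutrophil markers summed to 5.56 FPKM, against 3.77 to 38.4 FPKM in the MSC and 9.18 to 25.4 FPKM in the vehicle libraries. Of those 8 markers 0 were above all 6 others and 3 below. The part of these cells in the differences was not tested.

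**Figure D4:**
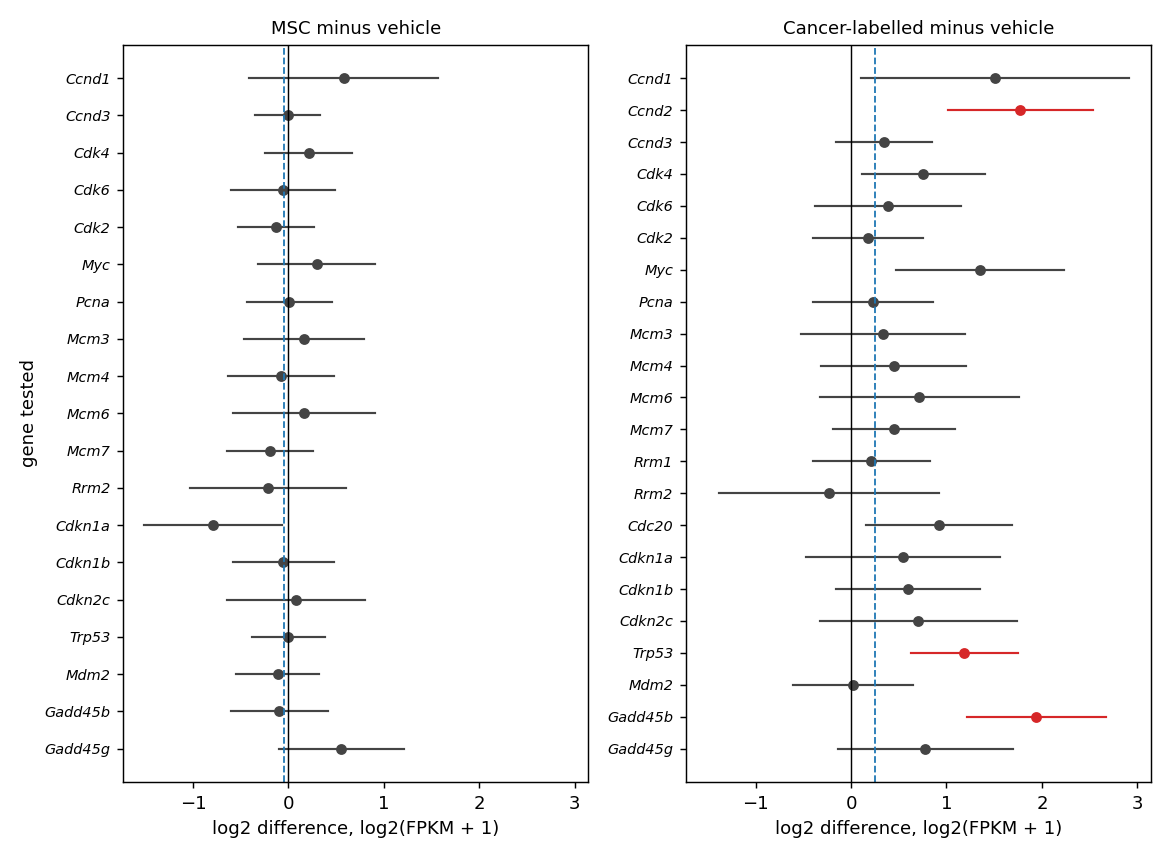
Log2 differences (points) with 95% intervals from limma (lines) for the tested cell cycle genes, MSC minus vehicle and Cancer-labelled minus vehicle. Red marks an adjusted p under 0.05 and the dashed line the median of all genes tested; only Gadd45b, Ccnd2 and Trp53 are red, all in the comparison of the Cancer-labelled library.

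Other genes of the same pathways were counted from lists, beside the same background shares. Between MSC and vehicle 0 of the 20 replication and repair genes tested, 0 of 7 mitosis genes, 0 of 12 regulators of the RB and E2F system, 0 of 22 other cyclins and cell cycle brakes and 0 of 21 p53 targets passed by limma. Of the 20 replication genes 17 had a positive difference, with a median of 0.14, where 39.9% of all genes tested were positive. Vehicle replicate 4 was the lowest of the 6 libraries for 24 of the 48 listed replication genes. Among the 12265 genes of the other comparison that share was 17.9%. The part of that library was not tested. Of the 6 S-phase genes tested among the 40, 3 were positive and 3 negative. The difference was positive for 5 of the 7 mitosis genes (median 0.09), 7 of the 12 RB and E2F regulators (0.01), 9 of the 22 other cyclins and brakes (-0.03) and 10 of the 21 p53 targets (-0.02). Dut, the enzyme that keeps uracil out of DNA, was at 2.51, 3.91 and 1.97 FPKM in the MSC and at 2.01, 1.48 and 1.21 FPKM in the vehicle libraries, with a difference of 0.54 ± 0.22 (SE) and an adjusted p of 0.822.

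The lowest p in these lists belonged to E2f8, an E2F factor that represses transcription and takes part in making hepatocytes polyploid. It was at 0.906, 1.53 and 1.12 FPKM in the MSC libraries and at 1.85, 3.88 and 3.34 FPKM in the vehicle libraries, with no overlap, the order that 7.84% of all genes tested showed. The difference was -0.85 ± 0.23 (SE), which failed the correction with an adjusted p of 0.622 by limma. The Cancer-labelled library, at 0.741 FPKM, was below all 6 others, with a difference from vehicle of -1.17 ± 0.32 (SE) and an adjusted p of 0.0982. Beside these values, red cell markers summed to 212, 905 and 601 FPKM in vehicle replicates 1, 3 and 4, the order of E2f8 in that group, and to 106 to 225 FPKM in the MSC libraries. Of these markers 6 of the 6 tested had a negative difference (median -1.78), where 39.9% of all genes tested were positive. Of the 6, 5 had an unadjusted p under 0.05, where 5.59% of all genes tested did, and 0 passed by limma. In the Cancer-labelled library the red cell markers summed to 564 FPKM, where E2f8 was lowest. Their part in the MSC difference was not tested. E2f6, another repressor of the family, was at 1.77, 1.72 and 1.77 FPKM in the MSC and at 2.35, 2.45 and 2.41 FPKM in the vehicle libraries, also without overlap, with a difference of -0.31 ± 0.14 (SE) and an adjusted p of 0.916. Cks1b, which serves the degradation of p27, was at 1.95, 1.89 and 1.66 FPKM in the MSC and at 1.42, 1.01 and 1.10 FPKM in the vehicle libraries, with a difference of 0.38 ± 0.16 (SE) and an adjusted p of 0.836.

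Among the p53 targets Trp53inp1, which promotes p53 activity under stress, was at 42.3, 20.3 and 16.6 FPKM in the MSC and at 17.7, 7.89 and 5.70 FPKM in the vehicle libraries. The groups overlapped through vehicle replicate 1, and the difference of 1.29 ± 0.43 (SE) had an adjusted p of 0.704 by limma. Aen, an exonuclease gene induced by p53, was at 1.72, 2.06 and 1.43 FPKM in the MSC and at 2.65, 2.85 and 2.98 FPKM in the vehicle libraries, without overlap. Its difference was -0.49 ± 0.16 (SE), with an adjusted p of 0.692. In the Cancer-labelled library 0 of the 22 p53 targets tested passed as higher and 1 as lower, against the 3.98% and 0.188% of all genes tested. None passed among 22 replication and repair genes, 7 mitosis genes, 13 RB and E2F regulators and 22 other cyclins and brakes tested by limma. In that order 0, 1, 2 and 3 genes had an unadjusted p under 0.05, against 17.2% of all genes tested. The p53 target that passed was Plk3, a stress-responsive kinase, at 24.5 FPKM against 47.2, 54.4 and 53.5 FPKM in the vehicle and 36.5, 41.6 and 39.8 FPKM in the MSC libraries. Its difference was -1.04 ± 0.23 (SE), with an adjusted p of 0.0446 by limma.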

How the data were processed

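Total RNA from 7 mouse livers was sequenced, and the authors deposited 1 table of FPKM values, with genes in rows and 1 column a library. StringTie 2.1.6, HISAT2 2.2.1, FastQC 0.11.9 and cutadapt 1.9 and the builds mm10 and GRCm38 come from the submitters' processing notes, which give no role for each. Coordinates are those of the table. How strand was handled is not stated. Values were not whole multiples of 1 fragment (10.3% to 11.1% of low values were, within 0.02), so no count test was run, and the depth is an estimate that covers counting error only. log2(FPKM + 1) was fitted with limma 3.58.1 (trend) in R 4.3.3, with Benjamini-Hochberg adjustment over all genes tested, and was tested on simulated data. Genes needed 1 FPKM in at least 3 libraries, or in the Cancer-labelled library for its comparison. The groups share only 1 replicate number. Named with values in every library are genes past the threshold, up to 4 of lowest p per role, and from each pathway list some of the genes of lowest p; Ccne1, Ccnb1, Ccnb2, Cdk1, Mki67, Top2a, Pcna and the single markers were added after their values were seen. The genes and lists were chosen with earlier results of these data known. All 40 genes matched GENCODE M21 by gene identifier, 36 of them with the same start and end. Exon overlaps come from that annotation. Alternatives were another pseudocount, filter, scaling, model or set of libraries.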

Additional observations from a re-analysis of the deposited data

How the results depend on the processing

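No cell cycle gene passed between MSC and vehicle under any alternative run, and the median difference of those tested lay between -0.12 and 0.16. For the Cancer-labelled library the count of 3 genes became 0 with a pseudocount of 0.1, and was 1 to 5 when 1 MSC or vehicle library was left out: 5 without vehicle replicate 1, which added Ccnd1 and Mcm6, and 1, Gadd45b, without vehicle replicate 3 or vehicle replicate 4. It was 2 to 4 under the other settings. Their median difference of 0.57 became 0.27 with a pseudocount of 5 and 0.26 with libraries centred on their medians, which moved the median of all genes from 0.25 to -0.06. It was 0.43 to 0.72 when 1 library was left out. The count over all genes in that comparison, 511 with 95.5% higher, was 13 (69.2% higher) with a pseudocount of 0.1, 838 with a pseudocount of 5, 1035 with no filter, 259 with a filter on the mean, 316 on TPM scaling, 778 against all 6 libraries, 383 (83.0% higher) after quantile normalization, and 267 and 284 without vehicle replicates 3 and 4. Cdk2 changed sign with median centring (-0.13) and quantile normalization (-0.17). No paired analysis was possible because the MSC and vehicle groups share only replicate number 1. Of the 12 mitotic genes 9 lay below 1 FPKM in every library, where 1 FPKM stands for about 16.4 to 18.1 fragments per kilobase. Few fragments per library stand behind the low values of the shorter transcripts.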
